A study of Sus scrofa with 40 samples.

Results

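EEF1A1, the gene of translation elongation factor eEF1A1, was measured in Longissimus muscle (LM) of pigs by 4 probes, AJ656656.1_81, BE032885.1_113, BM194705.1_1868 and CA778534.1_143. The probe CA778534.1_73 was added because it lies on the same contig (a sequence assembled from expressed sequence tags) as CA778534.1_143. The scanner output names no gene, so the symbol EEF1A1 was taken for 4 probes from the study's list of genes higher in Large White (LW) than in Basque (B) pigs, and CA778534.1_73 has no symbol in the sources used here. These are 5 of the 15198 gene probes of the array, and all 5 were among the 12222 probes tested. Since the list was drawn from the breed contrast of these same arrays, and the contig probe was added with its values known, differences between the breeds are described here without a test.

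eEF1A is a GTP-binding protein that brings each aminoacyl-tRNA to the ribosome during elongation, and it is one of the most abundant proteins of the cytoplasm. EEF1A1 is expressed in most tissues, and a closely related isoform encoded by EEF1A2 is the main form in mature skeletal muscle fibres, heart and neurons. The EEF1A1 transcript belongs, with those of ribosomal proteins, to the 5′ TOP messages, whose translation follows growth signalling through mTOR.

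The animals were 40 castrated males, 20 B pigs of a local breed and 20 LW pigs of a selected line, slaughtered at about 145 kg live weight. In each breed 10 pigs lived in conventional housing (slatted floor) and 10 in alternative housing (bedding and an outdoor area), with littermates divided between the systems. The B pigs were older at that weight. Both breeds had the same feed allowance at a given weight, although the paper states a higher appetite for LW pigs. Breed, age and feeding therefore cannot be told apart. LM RNA of each pig was labelled with Cy3 and hybridised against a Cy5 pool of all 40 pigs, with no dye swap.

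Values are log2 ratios of pig to pool after normexp background correction (offset 50), with the median of each array set to 0. A negative value therefore means that the signal of the pig was below that of the pool at that probe, relative to the median probe. Ratios of different probes may be set against each other, whereas the levels of the transcripts behind them may not. The arrays lay on 7 slides, each with pigs of both breeds, and the median Cy3 signal of an array ranged from 130.2 to 158 in B and from 128 to 165 in LW pigs. The methods state the dyes, and the direction of pig over pool was kept for all arrays, although correlations between arrays over the tested probes went from -0.34 to 0.83. The negative ones all involved LW alternative replicate 18, and without it the lowest was 0.21.

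The normexp fit went wrong on 2 arrays. B alternative replicate 15 had 5 spots and LW alternative replicate 18 had 7 spots whose local background exceeded their own signal by more than 100, and the other 38 arrays had none. The local background reached 57686.5 in Cy3 on the first array and 31206.5 in Cy5 on the second. The median Cy3 signal of these arrays was 139.5 and 165 before and 1180.1 and 371 after the correction, while the corrected median of the other 38 arrays lay between 130.2 and 167. With normexp fitted again without these spots, here called the refit and chosen after the data were seen, the medians were 141 and 168, and correlations between arrays ranged from 0.21 to 0.83. The refit left the values of the 5 probes on the other 38 arrays as they were. The values below come from the first fit with both arrays kept, unless the refit is named. Values of the refit, or without the arrays, are added for the main comparisons and not for every value. The deposited log2 ratios of the same 2 arrays had correlations of 0.68 (B alternative replicate 15) and 0.83 (LW alternative replicate 18) with the scanner's own processed ratio, against a median of 0.994 over the arrays.

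The 5 probes were bright. All were well above background in Cy3 on 40 of 40 arrays, with 0 saturated spots and 0 outlier spots. The lowest Cy3 signal of any of them was 1455, on CA778534.1_73, where the local background was at most 47.

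AJ656656.1_81 had log2 ratios from -1.28 to 0.01 in B pigs, with a median of -0.45, and from -0.48 to 0.58 in LW pigs, with a median of -0.02. The breeds overlapped over much of this range, although the median of LW pigs exceeded the value of 18 of 20 B pigs. The lowest value was that of B alternative replicate 15, which was at -0.47 in the refit, where the lowest B pig was at -0.80. Group means of -0.46 ± 0.31 and -0.01 ± 0.30 (B, then LW, ± SD over 20 pigs) gave a model difference of -0.43 (SE 0.0892), LW pigs being 1.35-fold higher. The refit gave -0.42 ± 0.24 and -0.03 ± 0.28, with a difference of -0.38 (SE 0.0679).

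On BE032885.1_113 the B pigs extended from -1.70 to 0.03 around a median of -0.83, and the LW pigs from -0.76 to 0.96 around a median of -0.02. Low and high pigs occurred in both breeds, but 10 B pigs lay below the lowest LW pig and 9 LW pigs above the highest B pig. Here the means were -0.79 ± 0.47 and 0.07 ± 0.44, and LW pigs were 1.78-fold higher, with a difference of -0.83 (SE 0.135). In the refit B alternative replicate 15 moved from -1.70 to -0.91, the lowest B pig was at -1.37, and the difference was -0.78 (SE 0.120). BM194705.1_1868 and CA778534.1_143 gave nearly the same picture, with B medians of -0.84 and -0.86 and LW medians of 0.02 and 0.03. Their differences were -0.82 (SE 0.136) and -0.82 (SE 0.133), and -0.77 (SE 0.120) and -0.78 (SE 0.117) in the refit. The LW median exceeded all 20 B pigs on both, and 19 of them on BM194705.1_1868 in the refit.

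CA778534.1_73 had the widest range of the 5. Its log2 ratios went from -2.56 to -0.27 in B pigs, with a median of -1.90, and from -1.08 to 1.03 in LW pigs, with a median of 0.07. Of the LW pigs, 17 of 20 lay above the highest B pig, and 12 B pigs lay below the lowest LW pig. In the refit B alternative replicate 15 moved from -1.94 to -1.15, and the B median was -1.51. With means of -1.49 ± 0.82 for B and 0.13 ± 0.52 for LW pigs, the difference was -1.60 (SE 0.200), and LW pigs were 3.03-fold higher. In the refit it was -1.55 (SE 0.194). Ordered from the probe with the largest excess in LW pigs, this one was number 6 of 12222, and the 4 EEF1A1 probes were numbers 32, 35, 38 and 197 (in the refit 7, and 40, 43, 44 and 249). In the limma model 21.1% of the tested probes had an adjusted P value under 0.05 for breed, 9.49% of the tested probes being lower in B. In the refit the breed call was made for 3512 probes, against 2583 in the first fit. The median breed difference was -0.82 over the 5 probes and 0.00 over all tested probes. The EEF1A1 probes came from a list drawn from this contrast, and CA778534.1_73 was added with its values known. Their ranks and median therefore follow from the choice. BE032885.1_113, BM194705.1_1868 and CA778534.1_143 also have nearly one sequence, so the median of the 5 is in effect their common value.

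**Figure D1:**
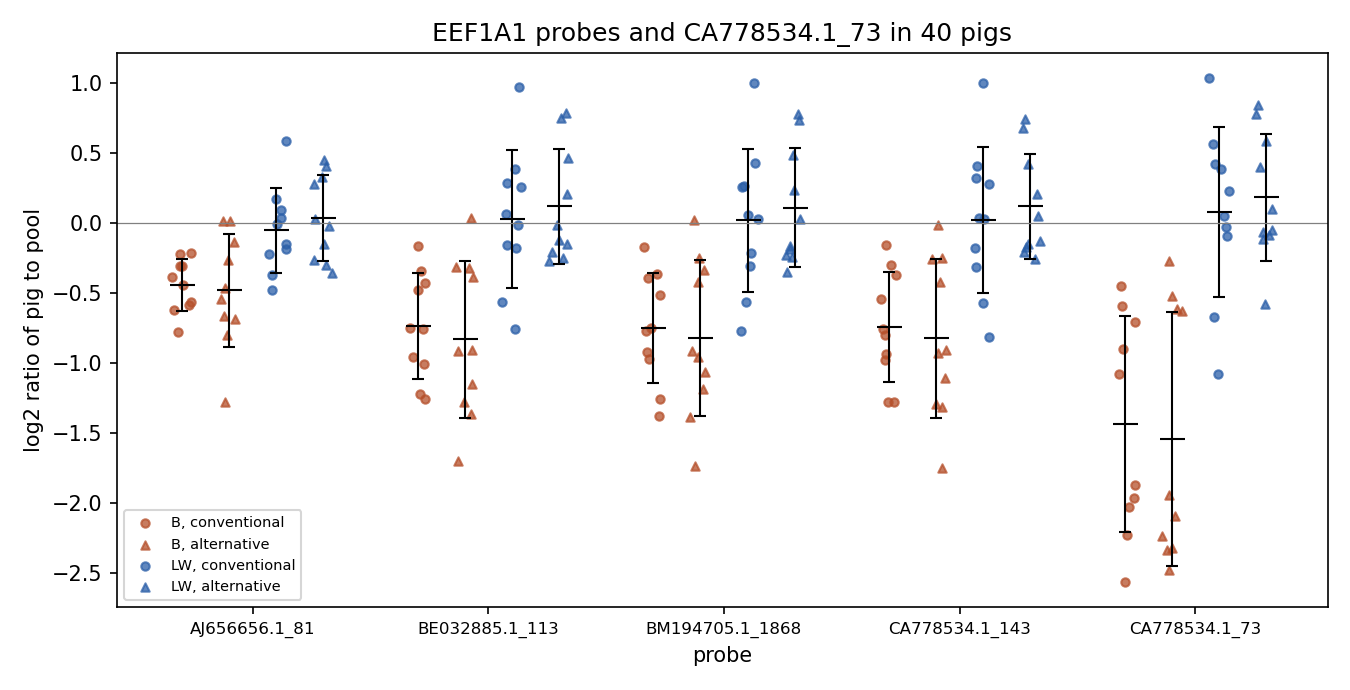
Log2 ratio of pig to pool (y axis) for each of the 5 probes (x axis) in 4 groups of 10 pigs; each point is 1 pig, and the bars give the mean ± SD. The B pigs lie lower on every probe and fall into an upper and a lower set on CA778534.1_73, with B alternative replicate 15 drawn at -1.94 (-1.15 in the refit), while the conventional and alternative pigs of a breed overlap.

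Every slide held pigs of both breeds, and the B mean lay below the LW mean in 7 of 7 slides on each of the 5 probes. The probes were chosen by this contrast on these arrays, so the count is a description and no separate evidence for the direction. For CA778534.1_73 the difference within a slide ranged from -0.54 to -2.16, and for BE032885.1_113 from -0.27 to -1.44. The largest of both was that of the slide with B alternative replicate 15, where the refit gave -1.96 and -1.24. The smallest was -0.01, for AJ656656.1_81 on the slide that held 1 pig of each breed. Without B alternative replicate 15 the differences of the 5 probes, in the order given at the start, were -0.39, -0.79, -0.78, -0.78 and -1.57, and without LW alternative replicate 18 as well they were -0.37, -0.77, -0.75, -0.76 and -1.54. In these whole pieces of muscle, fewer cells that carry a transcript and less transcript per cell cannot be told apart.

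Housing and its interaction with breed played no part in the choice of the probes and were tested in limma over all 12222 probes. Within a breed the 2 housing systems overlapped almost fully. On CA778534.1_73, for example, conventional B pigs ranged from -2.56 to -0.45 and alternative B pigs from -2.47 to -0.27, and conventional LW pigs from -1.08 to 1.03 and alternative LW pigs from -0.58 to 0.84. The difference of alternative minus conventional was 0.06 for this probe, with a 95% interval from -0.37 to 0.48 (P = 0.787, adjusted P = 0.9999). The interval for AJ656656.1_81, the narrowest of the 5, went from -0.14 to 0.24 around 0.05 (P = 0.578). For the other 3 probes the difference was between 0.04 and 0.06, with P values from 0.654 to 0.767. Without B alternative replicate 15 the 5 differences, in the order given at the start, were 0.11, 0.11, 0.14, 0.13 and 0.10, with P values from 0.169 to 0.652 (adjusted P = 0.99995), and in the refit they lay between 0.06 and 0.08, with P values from 0.310 to 0.707 (adjusted P = 0.9997).

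Housing was thus called for 0 of the 5 probes, as for 0 of 12222 (0%) in all, where 336 probes had P under 0.05 before adjustment. An analysis of variance in 2 steps, modelled on that of the methods, took out slide only for probes where slide had P under 0.05. It ran here on the 11508 probes with a value on all arrays, without the quantile normalization and the filter on variability that the methods used before it. It also called 0, with 301 probes under 0.05 unadjusted. The interaction, that is the breed difference in alternative minus that in conventional housing, was -0.17 for AJ656656.1_81 and -0.28 for CA778534.1_73. Neither was called (P = 0.362 and P = 0.489, adjusted P = 0.974 for both), nor were those of the other 3 probes, which lay between -0.17 and -0.20 with P values from 0.467 to 0.536. Without B alternative replicate 15 the 5 values, in the same order, were smaller in size, at -0.06, -0.06, -0.04, -0.06 and -0.21, with P values from 0.612 to 0.885 (adjusted P = 0.9998). In the refit they were -0.05, -0.08, -0.06, -0.09 and -0.17, with P values from 0.662 to 0.805 (adjusted P = 0.9992). Over the whole array the interaction was called for 0 probes (0%), with 312 under 0.05 unadjusted. The analysis in 2 steps called 0 as well, with 506 under 0.05.

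The sequences show how many separate measurements the 5 probes make. BE032885.1_113 and BM194705.1_1868 are one and the same 60-base sequence under different names, and CA778534.1_143 is identical to them at 58 of 60 positions. With base 1 at the 5′ end, the substitutions from BE032885.1_113 to CA778534.1_143 are G38T and G45T. Bases 27 to 56 of the 3 probes are shown with these positions in capitals.
BE032885.1_113: aatctgtcacaGaattttGagacccattaa
BM194705.1_1868: aatctgtcacaGaattttGagacccattaa
CA778534.1_143: aatctgtcacaTaattttTagacccattaa
AJ656656.1_81 and CA778534.1_73 share no stretch longer than 6 bases with these or with each other. The first 30 bases of CA778534.1_73 are given because this probe behaves unlike its neighbour on the contig.
CA778534.1_73: ggagattgctttgcggaccatttgttttgt
G and C make up 50% of the bases of AJ656656.1_81, 35% of CA778534.1_73, 28.3% of the identical pair and 25% of CA778534.1_143. The 4 entries for EEF1A1 therefore amount to one sequence measured on 3 spots, with 2 bases changed on one of them, and a separate sequence measured once.

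The identical pair shows how far spots of one array differ. The log2 ratios of BE032885.1_113 and BM194705.1_1868 differed within a pig by 0.01 on average, with an SD of 0.058 over 40 pigs. The largest gap between them was 0.22, in B alternative replicate 20. Among the 11 pairs of tested probes on the array that share one sequence, this SD ranged from 0.034 to 0.131 around a median of 0.080. The near copy CA778534.1_143 differed from the mean of the pair with an SD of 0.045, no more than the pair differed within itself. The pigs of a breed, in comparison, had an SD of 0.44 to 0.48 on these 3 probes, and of 0.42 to 0.45 in the refit. Error that all spots of an array share does not show in such differences.

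Probe was next set against probe in each pig. For this, slide and housing were taken out within each breed, which leaves 19 pigs, since each breed has 1 pig alone on a slide. In all, 24 relations were computed, with permutation P values (100000 resamples, exact for 9 pigs), two-sided and adjusted by Benjamini-Hochberg over the 24. The permutations treat the 19 adjusted values as independent. Taking out slide and housing ties these values to each other, so the P values over 19 pigs may be too small. Slides hold at most 4 pigs of a breed, too few for a correlation of their own.

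The 3 near copies followed each other almost perfectly. In B pigs Pearson's r ranged from 0.985 to 0.997 and Spearman's rho from 0.977 to 1, and in LW pigs r ranged from 0.996 to 0.997 and rho from 0.986 to 0.996. Leaving out the 2 pigs farthest from the median, r was at least 0.968. Probes of one sequence, or nearly one, have to follow each other on bright spots, so these 6 relations describe the precision of the array and no P value is given for them. They were among the 24 of the adjustment. Adjusted over the other 18 alone, an option added after the data were seen, no relation changed its side of 0.05. The relations of the 3 copies to a further probe repeat each other and are not separate evidence.

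AJ656656.1_81 has a different sequence and still ranked the pigs in much the same way. With CA778534.1_143 it gave r = 0.888 (P = 2e-05, adjusted P = 3.2e-05) and rho = 0.805 (P = 8e-05, adjusted P = 0.00012) over 19 B pigs. Over 19 LW pigs the values were r = 0.883 and rho = 0.875, each with P = 1e-05, the smallest that 100000 resamples can give, and adjusted P = 1.8e-05 and 2.2e-05. Without the 2 pigs farthest from the median of AJ656656.1_81, r was 0.753 in B and 0.848 in LW pigs, and 0.720 and 0.762 in the refit. In B pigs it was 0.867 without B alternative replicate 15, and 0.875 in the refit (P = 2e-05, adjusted P = 2.7e-05). The other 2 copies gave r of 0.872 and 0.873 in B pigs and of 0.895 and 0.896 in LW pigs.

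The range of AJ656656.1_81 was narrower than that of the copies, so that the difference between them moved with breed. In LW pigs AJ656656.1_81 minus the mean of the 3 copies ranged from -0.44 to 0.30 with a median of -0.05. In B pigs it ranged from -0.08 to 0.67 with a median of 0.37. Both signs occurred in each breed, and the upper part of the B range was not reached by any LW pig. The means were 0.32 ± 0.24 and -0.08 ± 0.23 (SD, n = 20 each), against an SD of 0.058 for the identical pair. As a difference of breed contrasts used by the rule, this gap was not tested.

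**Figure D2:**
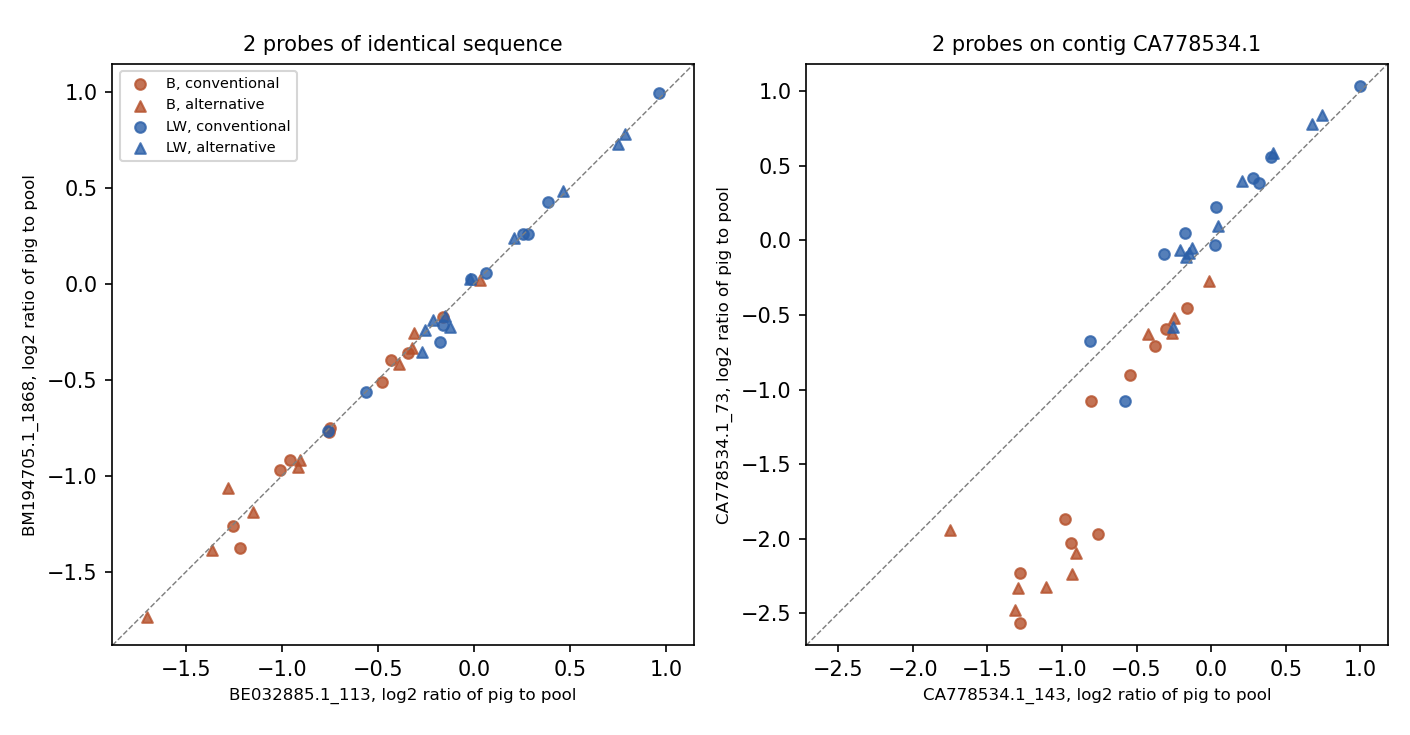
Log2 ratio of pig to pool on one probe against another in 40 pigs, for the identical pair (left) and for both probes of contig CA778534.1 (right); each point is 1 pig, and the dashed line marks equal ratios. The identical pair stays on the line, and on the right 10 B pigs lie between 0.89 and 1.30 below it.

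CA778534.1_73 set itself apart from all 4. In LW pigs it followed the EEF1A1 probes closely, with r = 0.932 and rho = 0.874 against CA778534.1_143 (n = 19, each P = 1e-05, adjusted P = 1.8e-05 and 2.2e-05), and r = 0.895 without the 2 farthest pigs (0.853 in the refit). Against AJ656656.1_81 the values were r = 0.890 (P = 1e-05, adjusted P = 1.8e-05) and rho = 0.870 (P = 2e-05, adjusted P = 3.7e-05), and r = 0.854 without the 2 farthest pigs (0.767 in the refit). In B pigs the probe fell into 2 levels, as judged by Gaussian mixtures of equal variance (BIC gain 18.1, where at least 10 was asked). The 11 pigs of the lower level lay between -2.56 and -1.87 and the 9 of the upper between -1.08 and -0.27, with an empty stretch of 0.79 between them. This count has B alternative replicate 15 in the lower level, at -1.94, which holds only for the first normexp fit. In the refit this pig was at -1.15 and the lowest of 10 pigs in the upper level, against 10 in the lower (BIC gain 14.5), with an empty stretch of 0.72. The widest gap also divided the B pigs into 10 and 10, with this pig next above it, without background correction, in Agilent's processed signals, after loess, in Cy3 alone (quantile-normalized) and in the deposited log2 ratios. None of the 4 EEF1A1 probes had more than 1 level in either breed by this rule, and CA778534.1_73 had 1 level in LW pigs.

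Because of these levels no correlation over all B pigs is given for this probe, and within a level the log2 ratios were used without adjustment for slide and housing. In the refit it followed CA778534.1_143 within the upper level of 10 pigs with r = 0.980 (permutation P = 2e-05, adjusted P = 2.7e-05) and rho = 0.976 (P = 5e-05, adjusted P = 7.5e-05), and r was 0.962 without the 2 farthest pigs. Within the lower level of 10 pigs the values were r = 0.793 (permutation P = 0.0084, adjusted P = 0.0095) and rho = 0.685 (P = 0.034, adjusted P = 0.037), and r was 0.847 without the 2 farthest. BE032885.1_113 gave r = 0.783 and rho = 0.721 in this level (permutation P = 0.009 and P = 0.023, adjusted P = 0.0095 and 0.027). Its identical partner BM194705.1_1868 gave r = 0.737 (permutation P = 0.018, adjusted P = 0.018), and its rho of 0.648 missed 0.05 after adjustment (P = 0.05, adjusted P = 0.052). With AJ656656.1_81 the lower level gave r = 0.869 (permutation P = 0.0013, adjusted P = 0.0016) and rho = 0.855 (P = 0.0028, adjusted P = 0.0034), and r was 0.805 without the 2 farthest. In the upper level r was 0.771 (permutation P = 0.0091, adjusted P = 0.0095) and 0.697 without the 2 farthest pigs, but rho was 0.564 and missed 0.05 (P = 0.094, adjusted P = 0.094).

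In the first fit the upper level of 9 pigs gave r = 0.978 with CA778534.1_143 (exact permutation P = 4.1e-05, adjusted P = 5.8e-05) and rho = 0.967 (P = 0.00017, adjusted P = 0.00022), and r was 0.928 without the 2 farthest pigs. The lower level of 11 pigs, with B alternative replicate 15 in it, gave r = 0.246 (permutation P = 0.47, adjusted P = 0.50) and rho = 0.318 (P = 0.34, adjusted P = 0.35), and r was 0.117 without the 2 farthest. Leaving this pig out gave r = 0.793 over the other 10 (permutation P = 0.0084, adjusted P = 0.010), so that the low value came with this pig as the first normexp fit placed it. With AJ656656.1_81 the upper level of 9 gave r = 0.734 (exact permutation P = 0.024, adjusted P = 0.029), but rho was 0.433 (P = 0.25, adjusted P = 0.29) and r was 0.581 without the 2 farthest pigs, so that this relation rests on those pigs.

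The difference between the 2 contig probes within a pig makes the pattern plain, since it removes what both share. In LW pigs CA778534.1_73 minus CA778534.1_143 lay between -0.50 and 0.22 with a median of 0.10. In B pigs it lay between -1.30 and -0.19 with a median of -0.63. All B pigs were below 0 and most LW pigs above it, and the B pigs formed 2 sets of 10, one from -1.30 to -0.89 and the other from -0.36 to -0.19 (BIC gain 24.9). With 3 components the gain was 27.8, which adds 2.83 to that of 2 where 10 was asked, so 2 were kept. In LW pigs 2 components had a gain of 15.9, but 1 of them held only 2 pigs where at least 3 were asked, so 1 level was kept. The empty stretch between the B sets was 0.53 wide, against an SD of 0.058 for the identical pair.

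B alternative replicate 15 had a difference of -0.19 in the first fit and -0.18 in the refit, and belonged to the upper set in both. Each set of 10 held 5 conventional and 5 alternative pigs. The lower set came from 5 slides and the upper from 7. Among LW pigs, 18 lay between -0.06 and 0.22, with LW alternative replicate 16 at -0.33, inside the range of the upper B set, and LW conventional replicate 2 at -0.50, between both B sets. The division of B pigs into 10 and 10 across an empty stretch was found in each of 5 further signals, namely without background correction, in Agilent's processed signals, after loess, in Cy3 alone (quantile-normalized) and in the deposited log2 ratios. The stretch was narrower in Cy3 alone, at 0.30 with a next gap of 0.17, than in the other 4 signals, where it was 0.51 to 0.57, or in the first fit, where the next gap was 0.10. In each of these signals and in the refit the same 10 pigs made up the lower set. What separates the sets was not tested.

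The sets also differed on the EEF1A1 probes. On CA778534.1_143 the lower set lay between -1.31 and -0.76 with a mean of -1.08 ± 0.20 (SD, n = 10), and in the refit the upper set lay between -0.97 and -0.02 with a mean of -0.41 ± 0.29. Of the upper set, 2 pigs, conventional replicate 9 and alternative replicate 15, reached into the range of the lower. The identical pair gave means of -1.08 for the lower set and -0.41 for the upper on both spots, and only replicate 15 reached into the lower range. On AJ656656.1_81 the means were -0.58 ± 0.16 and -0.26 ± 0.20, and 3 pigs of the upper set reached into the lower range. On CA778534.1_73 itself the set means were -2.21 ± 0.22 and -0.69 ± 0.28, the widest separation of the 5 probes, and no pig of the upper set reached into the lower range. The upper means and ranges above are those of the refit. In the first fit replicate 15 lay lower, and the upper set on CA778534.1_143 averaged -0.49 ± 0.49 and reached down to -1.75. On CA778534.1_73 it then reached -1.94, inside the lower range. In the refit the lower pigs inside the upper range numbered 4 on CA778534.1_143, 1 on BE032885.1_113, 3 on BM194705.1_1868 and 5 on AJ656656.1_81. On CA778534.1_73 they numbered 0. The sets were formed after the values were seen, from the difference of CA778534.1_73 and CA778534.1_143. Their separation on CA778534.1_73 therefore follows in part from how they were formed, and these gaps were not tested.

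**Figure D3:**
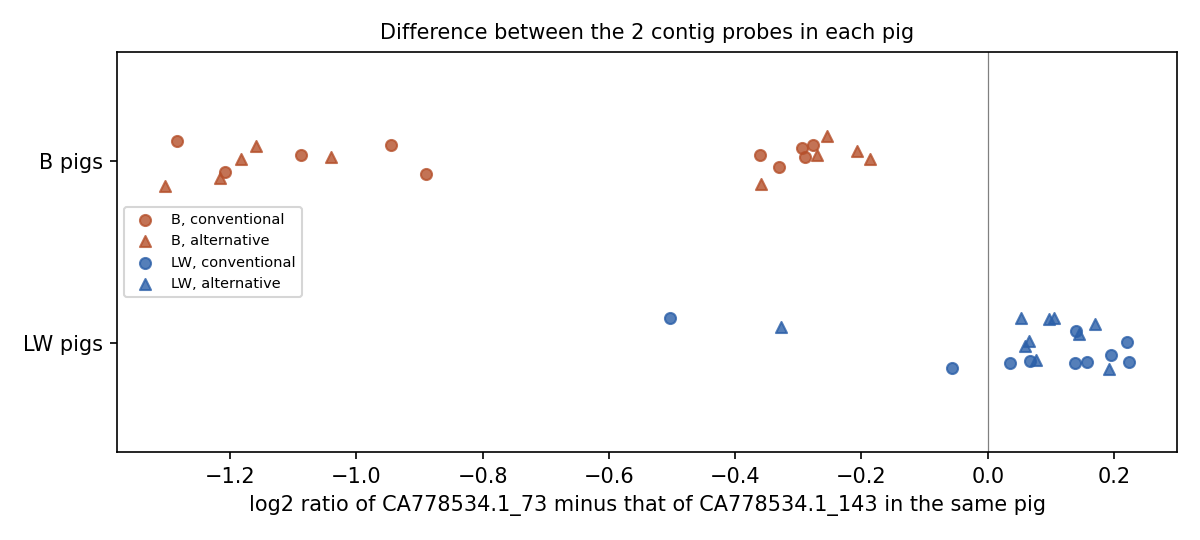
Log2 ratio of CA778534.1_73 minus that of CA778534.1_143 in the same pig (x axis) for 20 B and 20 LW pigs; each point is 1 pig, spread vertically for legibility, and the vertical line marks 0. B pigs form 2 sets of 10 from -1.30 to -0.89 and from -0.36 to -0.19, and 18 of 20 LW pigs lie between -0.06 and 0.22.

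The spread of this difference was set beside that of other contigs, none of which was examined for levels or gaps. On 863 contigs with more than 1 tested probe there are 885 pairs of probes. Their within-pig difference had a median SD of 0.116 in B and 0.120 in LW pigs. For the pair CA778534.1_73 and CA778534.1_143 the SD was 0.447 in B pigs, the third largest of the 885, and 0.180 in LW pigs, rank 206. The gap between the breed means of the difference was 0.77, also the third largest, against a median of 0.039. These ranks describe a pair that was chosen with its values known.

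The pool channel gives the spread between arrays that hold the same RNA. It is read in the other dye and does not hold the error of sampling, extracting and labelling the RNA of each pig. The technical spread of the pig channel may therefore be larger. The same Cy5 pool was on every array, and Agilent's processed Cy5 signal of the 5 probes had an SD between 0.10 and 0.16 over 40 arrays on the log2 scale. After normexp and median centring of Cy5 alone the SD was larger, from 0.41 to 0.47, but in the refit it was 0.10 to 0.15, so that the excess came with the 2 arrays named above. The Cy3 signal of the refit had an SD of 0.22 to 0.86 in B and of 0.28 to 0.52 in LW pigs (0.72 to 1.03 and 0.42 to 0.60 in the first fit). Mean Cy5 signals of the arrays with B and with LW pigs were within 0.03 of each other on each probe, and within 0.06 in the refit. In Cy3 alone, corrected by normexp and centred on the median of the array, the breed means differed by -0.48 on AJ656656.1_81, by -0.83 to -0.88 on the near copies and by -1.63 on CA778534.1_73 (-0.38, -0.74 to -0.78 and -1.53 in the refit). With Cy3 quantile-normalized between arrays instead, as in the alternatives, the model gave -0.40, -0.76 to -0.83 and -1.57, so that the differences lie in the channel that holds the pigs.

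The probes most like EEF1A1 were sought by correlating what the model left over (after breed, housing, interaction and slide) with the mean of the 4 EEF1A1 probes over 40 pigs. This mean is mostly that of the near copies. AJ656656.1_81, itself part of it, reached 0.92 on this measure, and CA778534.1_73 reached 0.86. Among 11859 probes outside these contigs, only scaj0012b._47 and BI327170.1_223 exceeded 0.9, both at 0.96. The next were scbe0002.j_254 at 0.71, CF176019.1_1257 at 0.66 and CD572759.1_851 at 0.64. In the refit the 5 values were 0.95, 0.96, 0.89, 0.58 and 0.45 in the same order, the last of them rank 25. Within each breed the first 2 stayed high, with 0.96 and 0.94 in B pigs and 0.96 and 0.97 in LW pigs. None of the 5 carries a symbol in the sources used here, and the values are a description with no P value.

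Only these 2 of the array's other probes share a stretch of at least 14 bases with any of the 5. They are printed with AJ656656.1_81 because the overlap joins all 3, and capitals mark the bases that each shares in one run with another of them.
AJ656656.1_81: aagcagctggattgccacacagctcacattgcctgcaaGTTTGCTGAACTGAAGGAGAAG
BI327170.1_223: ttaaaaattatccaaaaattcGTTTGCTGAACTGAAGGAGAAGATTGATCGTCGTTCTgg
scaj0012b._47: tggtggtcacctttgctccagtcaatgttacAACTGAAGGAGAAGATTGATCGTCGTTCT
The last 22 bases of AJ656656.1_81 stand in BI327170.1_223, which in turn shares 29 bases with scaj0012b._47, and the run common to AJ656656.1_81 and scaj0012b._47 has 14 bases. Outside the runs the sequences differ. The 3 probes next in likeness share at most 9 bases with any of the 5 measured here.

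On scaj0012b._47 the log2 ratios went from -1.42 to -0.02 in B pigs, with a median of -0.76, and from -0.70 to 0.78 in LW pigs, with a median of -0.13. BI327170.1_223 ranged from -1.29 to 0.15 in B pigs, with a median of -0.65, and from -0.61 to 0.96 in LW pigs, with a median of 0.02. As on the EEF1A1 probes, the breeds overlapped, with 11 B pigs below the lowest LW pig on each. The breed differences were -0.71 (SE 0.118) and -0.73 (SE 0.118), between those of AJ656656.1_81 and of the near copies, and both probes had 1 level in each breed. The refit gave -0.67 (SE 0.107) and -0.70 (SE 0.110). Within a pig the 2 probes differed from each other with an SD of 0.051, less than the 0.058 of the identical pair, although they share only 29 of 60 bases. Housing gave 0.09 (P = 0.477) and 0.10 (P = 0.433), neither of them called.

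scbe0002.j_254, the next in likeness, was also lower in B pigs, with a median of -0.13 in B and 0.21 in LW pigs. CF176019.1_1257 had medians of 0.16 and 0.08 and a breed difference of 0.09 (SE 0.0402), of the opposite sign. For CD572759.1_851 the medians were -0.51 and -0.35. Its likeness was 0.73 in B and 0.53 in LW pigs.

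Further genes of translation can be named here only through the study's lists of genes higher in LW and higher in B, both chosen on these samples, so their direction is no independent evidence and was not tested. The first list was used from the start, and the second was added after the data were seen. Of 18 symbols of elongation factors and their regulators, EEF1A1 and EEF2K had a named probe in the first and GTPBP1 in the second. EEF2K is the kinase that inhibits elongation factor 2, and its log2 ratios averaged -0.19 ± 0.19 for B and 0.24 ± 0.29 for LW pigs (-0.16 ± 0.27 and 0.22 ± 0.31 in the refit). GTPBP1, a GTP-binding protein related to elongation factors, averaged 0.12 ± 0.25 for B and -0.13 ± 0.09 for LW pigs. In the first list initiation was represented by EIF2AK2, the kinase PKR, with means of -0.06 ± 0.18 and 0.13 ± 0.25, and by EIF4EBP1, the repressor of cap binding that mTOR switches off, with 0.01 ± 0.14 and 0.19 ± 0.14. The second list named 5 initiation genes, all higher in B. The largest differences were 0.68 (SE 0.0700) for EIF4ENIF1, which carries the cap-binding factor into the nucleus, 0.54 (SE 0.132) for the scaffold EIF4G1 and 0.44 (SE 0.0874) for EIF2B1, a subunit of the exchange factor of eIF2. EEF1A2 and the remaining elongation factors were not analysed here.

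Ribosomal proteins share the 5′ TOP motif with EEF1A1 and were represented by RPL30, RPS19, RPS24 and RPS4X in the LW-higher list. RPS19 had the largest breed difference of these 4, -0.48 (SE 0.119), its B pigs averaging -0.33 ± 0.16 and its LW pigs 0.10 ± 0.53. RPS24 differed by -0.30 (SE 0.0722) and RPL30 by -0.22 (SE 0.0547). RPS4X had the smallest difference of these 4, -0.07 (SE 0.0389). By the measure of likeness used above, these 4 ribosomal probes lay between -0.06 and 0.29 to EEF1A1, and the probes of EEF2K, EIF2AK2 and EIF4EBP1 between -0.13 and 0.02, and in the refit these were 0.04 to 0.37 and -0.06 to 0.06. Among the B-higher genes RPL17 differed by 0.15 (SE 0.0440), and RPL35 by 0.11 and 0.12 on 2 probes, so ribosomal proteins occurred in both directions. The likeness of these 3 probes lay between -0.18 and 0.25, that of the 5 initiation probes between -0.01 and 0.32, and that of GTPBP1 was -0.10 (-0.20 to 0.31, -0.20 to 0.28 and -0.15 in the refit). Housing and interaction were called for 0 of these 7 probes and 0 of the 9 given from the B-higher list, where EIF2B1 had P = 0.0454 for housing before adjustment (adjusted P = 0.9999).

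Markers of the tissue named through the LW-higher list were ACTA1 and MYH1, 2 of 11 symbols sought for muscle fibres, and COL1A2 (2 probes) and DCN, 2 of 6 for fibroblasts. All were well above background in 20 of 20 pigs of each breed. ACTA1, skeletal alpha-actin, had means of -0.93 ± 0.25 for B and -0.60 ± 0.67 for LW pigs (-0.89 ± 0.24 and -0.63 ± 0.64 in the refit). MYH1, a fast myosin heavy chain, had means of -1.01 ± 0.40 and -0.35 ± 0.55 (-0.97 ± 0.36 and -0.38 ± 0.55 in the refit). DCN had means of -0.19 ± 0.25 and -0.01 ± 0.35, and the COL1A2 probes differed by -0.49 and -0.18. Their likeness to EEF1A1 was 0.31 for MYH1, 0.24 for ACTA1, 0.14 for DCN, and 0.25 and 0.16 for COL1A2, all far below that of the sequence neighbours. In the refit these 5 values lay between 0.11 and 0.21. The B-higher list named 2 further symbols of muscle fibres, both of slow fibres. MYH7, a slow myosin heavy chain, differed by 0.15, 0.40 and 0.26 on 3 probes, and TNNT1, slow troponin T, by 0.17 (SE 0.0581). Their likeness to EEF1A1 was -0.35, 0.37 and 0.27 for MYH7 and 0.11 for TNNT1, and -0.46, 0.17, -0.10 and 0.08 in the refit. The part of fibre or connective tissue content in the EEF1A1 values was not tested, and housing was called for 0 of these 9 probes, although 1 MYH7 probe (P = 0.0358) and TNNT1 (P = 0.0485) were under 0.05 before adjustment (adjusted P = 0.9999). Symbols sought for adipocytes, endothelium, blood, smooth muscle, nerve and satellite cells were in neither list.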

How the data were processed

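Breed, housing and replicate number came from the sample labels, and each of 40 pigs had 1 array. The authors deposited spot intensities from Agilent Feature Extraction before normalization, the marks for outliers, saturation and signal above background, and log2 ratios in a series matrix. In that matrix the medians of the 40 arrays lay between -0.015 and 0.026, and its log2 values ran in the direction of pig over pool, with a median r of 0.994 to Agilent's processed ratio and a median slope of 0.948. For the arrays that follow it less closely, the sources used here do not state the treatment. Columns without a sample numbered 0.

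limma 3.58.1 (R 4.3.3) was used for normexp correction, with an offset of 50, and ratios of pig to pool were centred on the median of each array. On 2 arrays a few spots of high local background spoiled the normexp fit, and a refit without spots whose background exceeded the signal by more than 100 was added after the data were seen. Outlier spots (2396) and control spots (546) were dropped and saturated ones (83) retained. A probe was tested if at least 10 pigs of 1 breed had a Cy3 signal well above background. One limma model held breed, housing, interaction and slide, with Benjamini-Hochberg adjustment over 12222 probes. Litter was not in the labels used here, so littermates count as independent. Levels came from mclust 6.1.1 (BIC gain of at least 10, at least 3 pigs per level). The program was tested on simulated data. The number of pigs limits the precision. Alternatives covered background correction, loess, quantile-normalized Cy3 alone, filters, outlier and saturated spots, the slide term, array weights, the replicate block, the deposited ratios, arrays left out and, for correlations, Spearman and unadjusted ratios.

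The members and lists were chosen with earlier results of these data known. Named probes are the 5 members, the 5 probes most like them and those of the gene lists, which covered elongation, initiation, ribosomal proteins and markers of muscle fibres and fibroblasts. Genes of the lists were named through the list of LW-higher genes and, added after the data were seen, through that of B-higher genes. ACTA1, which the rule for named genes left out, is given as a marker of muscle fibres. Some ribosomal protein probes are not reported here.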

Additional observations from a re-analysis of the deposited data

Results flagged for a closer look

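In 2 groups of 10 pigs the lowest value stood far from the rest on the difference of CA778534.1_73 minus CA778534.1_143 within a pig. LW alternative replicate 16 was at -0.33 and LW conventional replicate 2 at -0.50, where the other 18 LW pigs lay between -0.06 and 0.22. The gap to the nearest pig of the group was 0.729 and 0.614 of the range of the group, past Dixon's 95% critical value for 10 samples. Chance gives a gap past that critical value in about 1 in 20 groups, and both ends of 4 groups were examined on 8 measures. On CA778534.1_73 itself these pigs were at -0.58 and -1.08, and on CA778534.1_143 at -0.26 and -0.58.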

How the results depend on the processing

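The lower values of B pigs on the 5 probes kept their direction in 17 other settings of the whole model, from -0.36 to -0.46 for AJ656656.1_81, from -0.72 to -0.86 for the near copies and from -1.42 to -1.67 for CA778534.1_73. All these settings use the arrays by which the probes were chosen, so they are no separate evidence for the direction. Within single slides the difference moved by more than 1 SD on slide 2, with 1 pig per breed, to -0.015, -0.267, -0.194, -0.272 and -0.544 for AJ656656.1_81, BE032885.1_113, BM194705.1_1868, CA778534.1_143 and CA778534.1_73, and on slide 4, which held B alternative replicate 15, to -0.737, -1.44, -1.42 and -1.43 for the first 4 (-0.54, -1.24, -1.22 and -1.24 in the refit). For slide 2 the cause was not tested. Housing and interaction were called for none of the 5 in any setting that tested them, with adjusted P values of at least 0.992 and 0.905. The housing difference changed sign without a slide term and in the two-step analysis, to -0.0020 for BE032885.1_113 and -0.0023 for CA778534.1_73 in both, and with array weights, to -0.038 for CA778534.1_73. All these values are close to 0, and the cause was not tested. The number of probes called for breed ranged from 2197 to 3787, against 2583.

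Replicate numbers run from 1 to 20 in both breeds but do not pair the pigs: the correlation of same-numbered pigs had a median of 0.04, and 5 of 20 were over 0.1. With the replicate block, 2197 probes were called for breed, and the difference was -1.51 for CA778534.1_73 and -0.76 for BE032885.1_113. Housing could not be estimated with it.

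The pool's SD was 0.106, 0.107, 0.101, 0.156 and 0.109 in Agilent's processed signals, against 0.463, 0.469, 0.457, 0.406 and 0.445 after normexp, in the same order. In the refit it was 0.146, 0.125, 0.10, 0.108 and 0.128.

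Correlations over all pigs of a breed passed 0.05 after adjustment in every setting. Those of CA778534.1_73 within the lower level of B pigs did not in the main setting, but did for the same 11 pigs in Cy3 alone (quantile-normalized), with 0.645, 0.618, 0.651 and 0.781 for the other probes in the same order. Without B alternative replicate 15, and in the refit, they were 0.869, 0.783, 0.737 and 0.793. Leaving out this array alone, the refit, and the contig difference in other signals were added after the data were seen. With AJ656656.1_81 the lower level gave -0.056 without the 2 farthest pigs. In the upper level the correlation with AJ656656.1_81 no longer passed as rho (0.433), without the 2 farthest pigs (0.581) or in Cy3 alone (0.615). Beyond the effect of the refit and of leaving out pigs, the cause was not tested. All 5 probes were well above background in Cy3 on 40 of 40 arrays, although the background correction moved the values of 2 arrays.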
